A study of Oikopleura dioica with 12 samples.

Results

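The levels of 9 gene models of the large ribosomal subunit of Oikopleura dioica, a planktonic tunicate, were compared between Torin 1 and DMSO animals. They were chosen by identifier out of 17212 genes in the count table: RPL3 (GSOIDG00014879001), RPL10 (GSOIDG00013461001), RPL12 (GSOIDG00003868001), RPL23A (GSOIDG00017874001), RPL27A (GSOIDG00007917001), RPL36A (GSOIDG00009297001), RPL39 (GSOIDG00000468001) and 2 models of RPLP1, GSOIDG00000470001 and GSOIDG00000922001. All 9 reached the minimum of 100 reads over the 12 libraries. The names are those of the human orthologs that the study assigned, and no table pairs all genes with names, so that the tissue was not checked against marker genes other than the axoneme genes given below. The RPLP1 models are told apart by the length of their annotated 3′ UTR, 46 bases in GSOIDG00000470001 (the short-UTR model) and 369 bases in GSOIDG00000922001 (the long-UTR model).

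The large subunit joins amino acids at its peptidyl transferase centre, passes the nascent chain through an exit tunnel and recruits translation factors with a flexible stalk. In vertebrates the mRNAs of its proteins start with a terminal oligopyrimidine (TOP) tract, and their translation depends strongly on the kinase mTOR. In O. dioica many mRNAs instead receive their 5′ end from a spliced leader, a short RNA added by trans-splicing, and all 9 models carry one according to the ortholog list of the study.

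The 12 libraries fell into 4 groups of 3: ribosome-protected fragments (RPFs, the footprints that ribosomes leave on mRNA after nuclease digestion) of Torin 1 animals, RPFs of DMSO animals, total RNA of Torin 1 animals and total RNA of DMSO animals. Torin 1 inhibits mTOR. Whole females at day 6 were kept for 1.5 h in seawater with 1 μM Torin 1 or with DMSO as the vehicle, both with food, and animals were pooled into each collection. RNA of each replicate was taken from a subset of the collection that gave its RPFs, and no cycloheximide was used. No strain or genetic change was named for any group, and the whole body was used, so that most of the material at this age is ovary.

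Library totals were between 91549 and 22889270 counts for RPFs and between 7520819 and 27462750 counts for RNA. Levels are given as RPM, reads scaled to the library total. With a count of 0, levels of up to 0.109 RPM in the deepest and 32.8 RPM in the shallowest library remained possible, and intervals and floors given here cover counting error only. Some libraries stood apart. RPF DMSO replicate 1 was the deepest RPF library, and its log2 CPM correlated with RNA Torin 1 replicate 3 at r = 0.95 across genes, against 0.730 and 0.740 with the other RPF DMSO libraries. RNA Torin 1 replicate 2 and RNA DMSO replicate 2 were nearly equal, with a chi-square of 1.07 per degree of freedom over 13062 genes, against at least 27.3 for any other pair of RNA libraries. The 12 axoneme genes that were found (dynein heavy chains, radial spoke proteins and tektins of cilia and sperm tails, drawn from genes picked on these libraries) summed to between 2854 and 9031 RPM in RPF Torin 1 libraries and to between 848 and 12001 RPM in RPF DMSO libraries, with the highest sum in DMSO replicate 1. They summed to 1143, 200 and 8577 RPM in RNA Torin 1 replicates 1, 2 and 3, against 40.1 to 227 RPM in RNA DMSO libraries. At most 2 of the 12 were at 0 in any library. The part of these libraries and genes in the results below was not tested beyond the fits that leave the libraries out.

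The members were small genes with short introns. RPL3, a protein close to the peptidyl transferase centre, had the longest coding sequence (scaffold 6, 158475 to 160096, minus strand, 4 coding exons, 1212 coding bases). RPL10, which joins the subunit late in its assembly, lay on scaffold 5 (1090263 to 1091078, minus strand, 3 coding exons, 645 coding bases). RPL12, at the base of the stalk, lay on scaffold 148 (3936 to 4688, minus strand, 3 coding exons, 498 coding bases). RPL23A, at the mouth of the exit tunnel, lay on scaffold 9 (1267692 to 1268308, plus strand, 3 coding exons, 306 coding bases), and RPL27A, a core protein of the subunit, on scaffold 23 (119625 to 121024, plus strand, 2 coding exons, 450 coding bases). RPL36A, which lies near the exit site of the tRNA, was on scaffold 3 (1872694 to 1873365, plus strand, 3 coding exons, 315 coding bases). RPL39, which lines the exit tunnel, was the shortest, with 156 coding bases in 2 exons (scaffold 1, 1577593 to 1578067, plus strand). RPLP1 is an acidic protein of the stalk that pairs with RPLP2 and recruits elongation factors. Its short-UTR model (scaffold 1, 1579274 to 1579712) and its long-UTR model (scaffold 1, 2859563 to 2860325) lay 1280.0 kb apart on the plus strand.

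**Figure D1:**
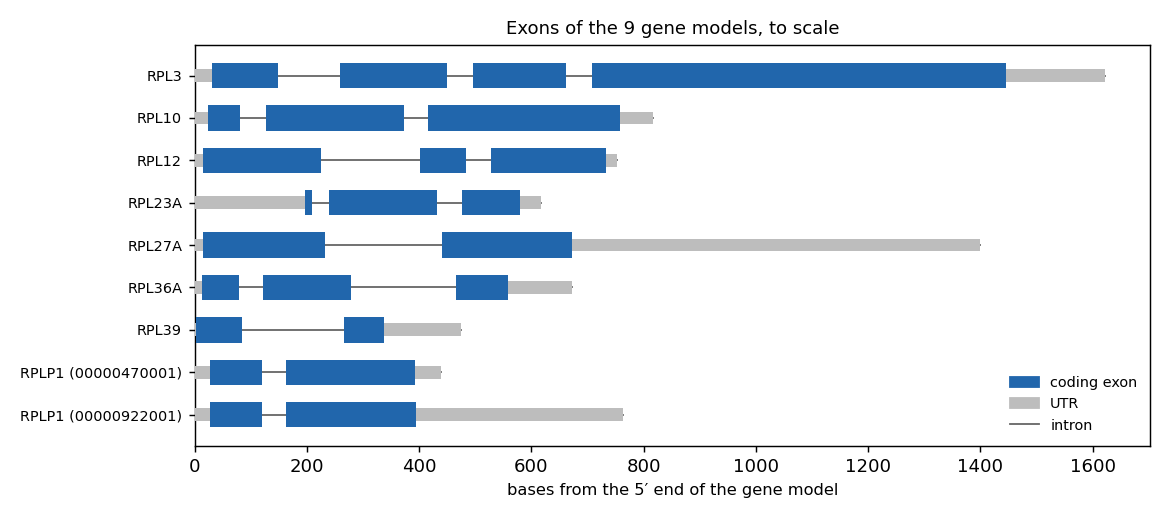
Exons of the 9 gene models, drawn to scale in bases from the 5′ end of each model, with coding exons in blue, UTRs in grey and introns as lines. Both RPLP1 models have coding exons of 93 and 231 bases, and their 3′ UTRs measure 46 and 369 bases.

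The RPLP1 models shared their whole coding layout. Each had a 5′ UTR of 27 bases and coding exons of 93 and 231 bases, split by an intron of 42 bases in the short-UTR model and of 43 bases in the long-UTR model. How reads with several positions were counted is not given in the sources used here, so that reads from any stretch the models share could have been split or lost, and their values carry that doubt.

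RT-qPCR primers of the study were at hand for RPL10, RPL12, RPL23A, RPL27A and RPL36A. The study took these genes for their large change in translation in the same samples, so their direction gives no independent evidence. The primers are shown in lower case from 5′ to 3′ for RPL10 and RPL36A, which had the weakest and the strongest difference of RPFs from RNA in Torin 1 animals among these genes. Each primer has 20 bases.
RPL10 forward: gtcaagaccatcggcaagga
RPL10 reverse: tcgaacttggtgaagccgaa
RPL36A forward: gactccatcttcgctcaggg
RPL36A reverse: ttcttgtcaccaccgagctc

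Predicted operons, chains of same-strand genes with no more than 60 bases between them, held 7 of the 9 models. RPL39 and the short-UTR RPLP1 model were the ends of one operon of 3 genes, 21 and 26 bases away from the gene between them, GSOIDG00000469001. In RNA, per kb of coding sequence, this middle gene had 72.6 ± 29.7 RPM in Torin 1 animals and 124 ± 25.4 RPM in DMSO animals (SD, n = 3). RPL39 had 4254 ± 1404 and 4625 ± 656.5 RPM per kb in Torin 1 and DMSO animals, and the short-UTR RPLP1 model 1900.0 ± 509 and 2137 ± 153.5 RPM per kb. The middle gene was thus below both of its neighbours in the same predicted operon. RPL23A was the third of 8 genes and was followed by RPS7 and RPS18, which encode small-subunit proteins, with gaps of 30 and 27 bases. RPL23A, RPS7 and RPS18 had 1427, 1629 and 2136 RPM per kb in RNA of Torin 1 animals, and 1679, 1861 and 2504 in DMSO animals, while the other 5 genes of that operon were between 27.1 and 125 in Torin 1 and between 38.7 and 192.5 in DMSO animals. RPL36A was followed, after 24 bases, by RPS27, a small-subunit gene with 1445 ± 565 RPM per kb in RNA of Torin 1 animals and 1570.0 ± 283.5 in DMSO animals. RPL3 and RPL12 were each the downstream gene of a pair, and the long-UTR RPLP1 model was the first of 4 genes, whose other 3 had 68.1 RPM per kb or less in RNA of either treatment. RPL10 and RPL27A lay outside predicted operons. For RPL10 this rested on the cutoff of 60 bases, since the nearest same-strand gene was 63 bases away. For RPL27A it was 126 bases away.

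Levels were compared between members per kb of coding sequence. RPL39 had the highest RNA level in both treatments, and RPL36A followed with 2209 ± 443 RPM per kb in Torin 1 animals and 2488 ± 133 in DMSO animals (SD, n = 3). The short-UTR RPLP1 model and RPL10 came next, RPL10 with 1874 ± 613 and 2062 ± 321 RPM per kb in Torin 1 and DMSO animals. RPL12 was lowest, with 1067 ± 407.5 and 1176 ± 188 RPM per kb. Of the 8 steps between neighbours in this order, 1 exceeded the larger SD in Torin 1 animals, between RPL39 and RPL36A. In DMSO animals 3 did so, between RPL39 and RPL36A, between RPL36A and the short-UTR RPLP1 model and between RPL27A and RPL12. In RPFs RPL39 also came first, with 508.5 ± 196 RPM per kb in Torin 1 animals and 1923 ± 1785 in DMSO animals, and the long-UTR RPLP1 model came last, with 219 ± 166 and 524 ± 643. None of the 8 steps in RPFs exceeded the larger SD in either treatment. With UTRs included in the length, the place of 7 of the 9 members changed in each group. In RNA RPL39 stayed highest, but RPL27A was then lowest, with 516 and 619 RPM per kb in Torin 1 and DMSO animals. In RPFs RPL10 then came first, with 427 and 1152 RPM per kb, ahead of RPL39 with 269 and 1017. The long-UTR RPLP1 model stayed last in RPFs.

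The RPF level was compared between Torin 1 and DMSO animals, since the study asked which mRNAs need mTOR for their translation. Footprints of the 9 models together took 0.136% ± 0.0556 of RPF counts in Torin 1 animals and 0.413% ± 0.191 in DMSO animals (SD, n = 3). For 8 of the 9, every Torin 1 library was below every DMSO library in RPM, with the long-UTR RPLP1 model as the exception. Such a separation was found in 8.18% of the 14574 genes tested. These shares and separations depend on library totals. The top gene made up 21.2%, 3.22% and 42.7% of the total in RPF Torin 1 replicates 1, 2 and 3. In RPF DMSO replicates it made up 0.780%, 2.725% and 17.9%. The separation was not tested with the top genes left out of the totals.

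RPL39 had 80.7, 48.0 and 109 RPM in RPF Torin 1 replicates 1, 2 and 3, against 621, 123.5 and 155.5 RPM in RPF DMSO replicates. The groups did not overlap, but the DMSO mean rested largely on replicate 1. RPL3 had 320.1, 166 and 557 RPM in Torin 1 animals, against 1765, 653 and 984 RPM in DMSO animals, and the lowest DMSO library was again above the highest Torin 1 library. RPL10 had 291, 237 and 404 RPM in Torin 1 animals, against 1125, 591 and 795 RPM in DMSO animals. It was the member with the most footprints relative to RNA in Torin 1 animals, as given below. RPL36A had 84.9, 48.0 and 218.5 RPM in Torin 1 animals, against 523, 227.5 and 338 RPM in DMSO animals, so that its groups were separated by less than 10 RPM.

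The short-UTR RPLP1 model had 94.6, 75.5 and 98.3 RPM in RPF Torin 1 libraries, against 536, 151 and 260.1 RPM in RPF DMSO libraries, with no overlap. The long-UTR RPLP1 model had 54.3, 27.4 and 131 RPM in RPF Torin 1 libraries, against 410, 36.6 and 62.8 RPM in RPF DMSO libraries. DMSO replicates 2 and 3 thus lay within the range of the Torin 1 libraries, and the DMSO mean of 170 RPM came mostly from replicate 1. These values rest on few reads: the long-UTR model had 39, 16 and 12 counts in RPF Torin 1 libraries and 9378, 32 and 21 in RPF DMSO libraries. The 95% Wilson interval of its 131 RPM in Torin 1 replicate 3 was 75.0 to 229 RPM. RPL12, RPL23A and RPL27A had group means of 118 ± 21.2, 102 ± 25.1 and 121 ± 47.8 RPM in RPF Torin 1 libraries, against 354 ± 73.6, 293 ± 73.4 and 367 ± 118 RPM in RPF DMSO libraries (SD, n = 3).

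**Figure D2:**
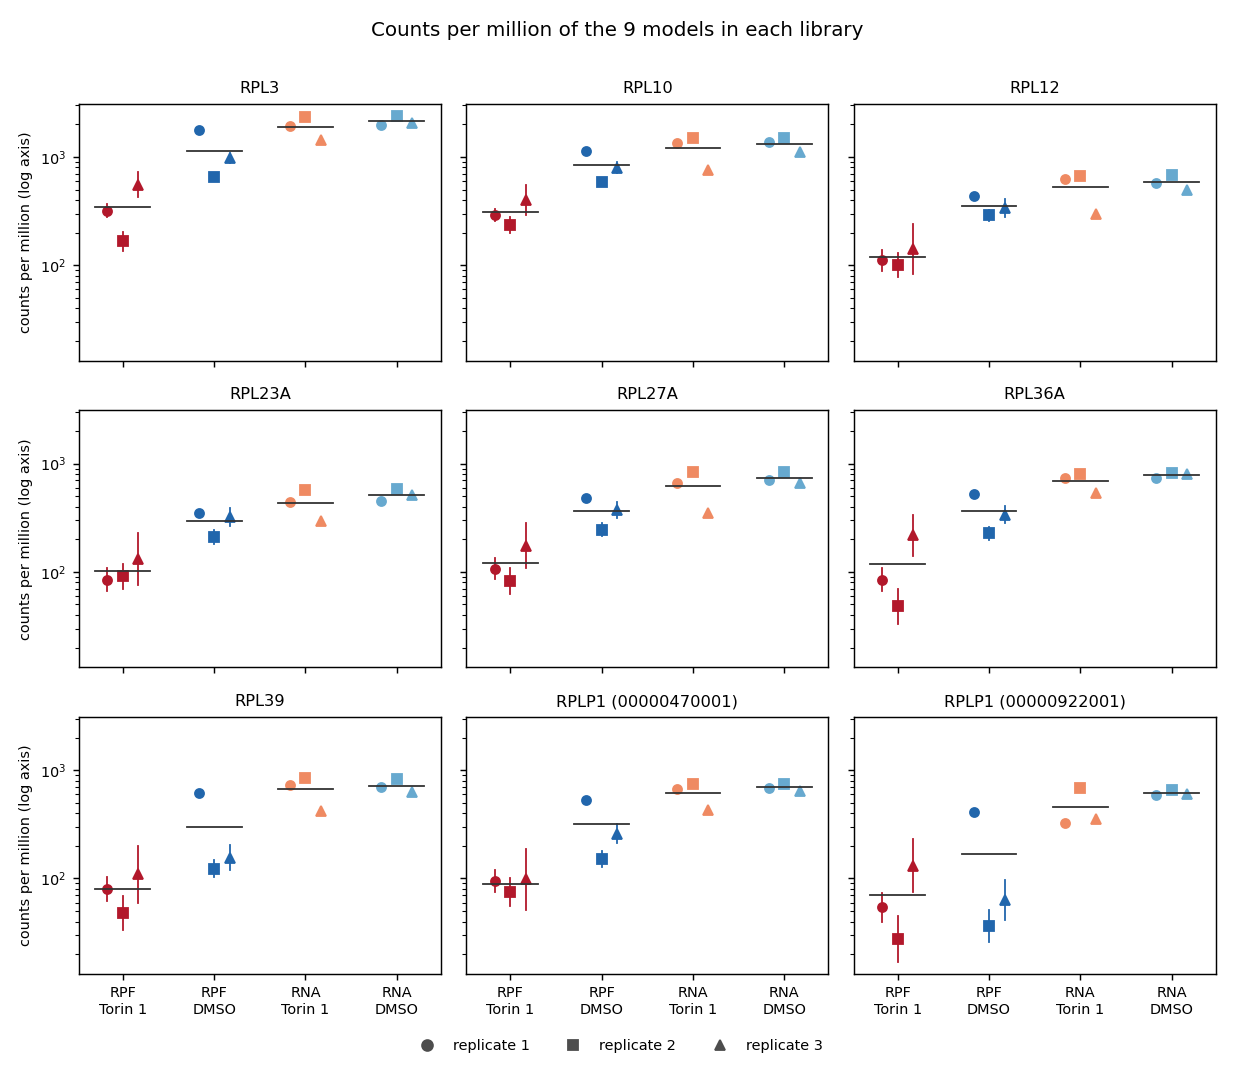
RPM (counts scaled to the library total) on a log axis for each of the 9 models in every library, by group, with a symbol for each replicate number, a horizontal line at the group mean and vertical lines for the 95% Wilson interval of counting. For 8 models the 3 RPF Torin 1 libraries lie below the 3 RPF DMSO libraries, and the long-UTR RPLP1 model (GSOIDG00000922001) has 36.6 and 62.8 RPM in DMSO replicates 2 and 3, within its Torin 1 range of 27.4 to 131.

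On the log2 scale the RPF changes, Torin 1 over DMSO, were between −1.81 (RPL39, SE 0.74) and −1.24 (the long-UTR RPLP1 model, SE 0.81). The short-UTR RPLP1 model had −1.68 (SE 0.69), RPL3 −1.58 (SE 0.79), RPL36A −1.57 (SE 0.73) and RPL27A −1.50 (SE 0.68). RPL12 had −1.48 (SE 0.67), RPL23A −1.42 (SE 0.66) and RPL10 −1.31 (SE 0.73). The median of the 9 was −1.50, against −0.24 for all genes tested. All 9 changes were negative, as were 61.0% of all genes, and 6 had an unadjusted p under 0.05 in the quasi-likelihood test of edgeR, against 4.12% of all genes that were lower at that level. The other 3 were RPL3, RPL10 and the long-UTR RPLP1 model. None passed an adjusted p of 0.05, which ranged from 0.910 to 0.930 over the 9, and 0% of all genes passed in this direction. DESeq2 also called 0 of the 9 after adjustment, where 0% of all genes were called lower, and gave 8 an unadjusted p under 0.05, against 1.61% of all genes lower in that fit. The edgeR count of 6 was 0 without RPF Torin 1 replicate 1 (2.56% of all genes lower at that level) or replicate 2 (1.90%), 2 without RPF DMSO replicate 3 (4.98%) and 4 without RPF DMSO replicate 1 (3.67%). With the replicate number as a block it was 1 (1.31%). The count rose to 7 without RPF Torin 1 replicate 3 (2.83%) and to 8 without RPF DMSO replicate 2 (6.79%). It was 7 with scaling by library totals (5.30%) and 5 with DESeq2 size factors (3.57%). The 37 other large-subunit models had a median of −1.41, with 36 negative and 20 lower at an unadjusted p under 0.05, and the 26 small-subunit models a median of −1.47, with 26 and 14. Without RPF DMSO replicate 1 the change of the long-UTR RPLP1 model turned to 0.44 and that of RPL39 was −0.77, while the median of the 9 was −1.15.

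Total RNA was compared to see whether the amount of these mRNAs moved as well. Total RNA came from whole animals, in which fewer cells of a type and less RNA per cell cannot be told apart. RPL39 had 734, 839 and 418 RPM in RNA Torin 1 replicates 1, 2 and 3, against 696, 834 and 634.5 RPM in RNA DMSO replicates, so that the groups overlapped. RPL3 had 1918, 2364 and 1444 RPM in Torin 1 animals, against 1969, 2397 and 2052 RPM in DMSO animals. The short-UTR RPLP1 model had 671, 745 and 430.2 RPM in Torin 1 animals, against 688, 744 and 645 RPM in DMSO animals. In these 3 genes replicate 3 was the lowest of the Torin 1 libraries, and the replicate 2 libraries of both treatments had nearly the same level. The long-UTR RPLP1 model had 326, 682 and 355 RPM in Torin 1 animals, against 596, 663 and 598 RPM in DMSO animals, and its groups overlapped too.

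The changes in RNA were between −0.43 (the long-UTR RPLP1 model, SE 0.40) and −0.11 (RPL39, SE 0.37), and the median was −0.16, against 0.22 for all genes tested. All 9 were negative, against 44.2% of all genes. None had groups without overlap, against 7.74% of all genes that were lower without overlap, and 0 of 9 had an unadjusted p under 0.05 in edgeR, against 0.0274% of all genes that were lower at that level. No adjusted p was below 0.519, and DESeq2 called 0 of the 9 as well. Without RNA Torin 1 replicate 3, in which the axoneme genes had their highest sum of any RNA library, the sign turned for RPL39 (0.05), RPL10 (0.03) and RPL12 (0.07), and the median of the 9 was −0.055, against 0.09 for all genes. Without RNA Torin 1 replicate 2 it was −0.34, against 0.28 for all genes, the other end of the range with single libraries left out. The 37 other large-subunit models had a median of −0.26 and the 26 small-subunit models of −0.20.

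Translational efficiency, the RPF level relative to RNA, was the measure of mTOR dependence in the study. Its change was tested as the interaction of assay and treatment over all 12 libraries. RPL39 had the most negative change, −1.53 (SE 0.90, edgeR adjusted p = 0.795), followed by the short-UTR RPLP1 model with −1.36 (SE 0.74, edgeR adjusted p = 0.772). RPL3 had −1.25 (SE 0.85), RPL36A −1.23 (SE 0.83), RPL12 −1.17 (SE 0.67), RPL27A −1.07 (SE 0.73), RPL23A −1.03 (SE 0.67) and RPL10 −1.02 (SE 0.72). The long-UTR RPLP1 model had −0.64 (SE 1.15, edgeR adjusted p = 0.993). The place of RPL39 rested on RPF DMSO replicate 1: without it RPL39 had −0.51, the smallest of the 8 negative changes left, and RPL12 had the most negative one, −1.07.

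The median of the 9 was −1.17, against −0.46 for all genes tested, and all 9 were negative, as were 66.3% of all genes. None of the 9 had an unadjusted p under 0.05 in edgeR, against 7.50% of all genes that were lower at that level, and none had collections without overlap between treatments, against 3.15%. DESeq2 called 0 of the 9 after adjustment, against 0.988% of all genes called lower, and gave 8 an unadjusted p under 0.05, against 6.35% of all genes lower in that fit. Among the 37 other large-subunit models, 35 were negative and 1 was lower at an unadjusted p under 0.05. The change of the long-UTR RPLP1 model turned to 1.04 without RPF DMSO replicate 1 and to 1.62 without the 4 libraries named above (RPF DMSO replicate 1, RNA Torin 1 replicate 3 and both replicate 2 RNA libraries), which leaves 1 RNA library of Torin 1 animals, taken to vary like the rest. With the collection of animals as a block it was 0.14. The other 8 stayed negative in these fits.

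**Figure D3:**
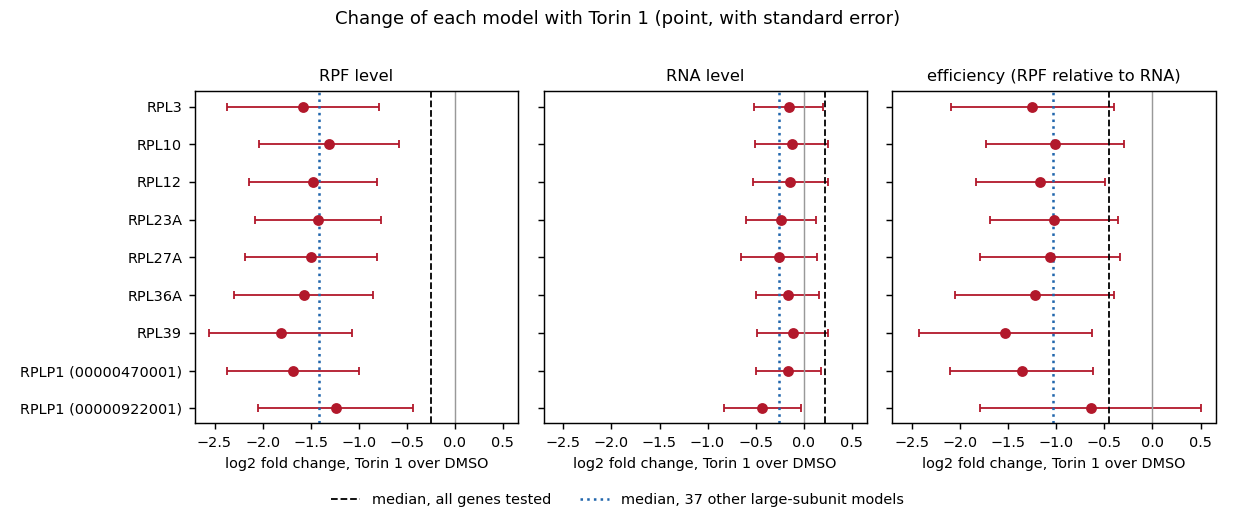
Log2 fold change, Torin 1 over DMSO, of each of the 9 models (points, with standard errors from edgeR) for the RPF level, the RNA level and efficiency, with the median of all genes tested (dashed) and of the 37 other large-subunit models (dotted). The points lie between −1.81 and −1.24 for RPFs, between −0.43 and −0.11 for RNA and between −1.53 and −0.64 for efficiency, and the long-UTR RPLP1 model (GSOIDG00000922001) has the widest error in efficiency.

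RPFs were then set against RNA within each collection of animals, taken as 1 treatment and replicate number. The ratio of RPF RPM to RNA RPM was below 1 for all 9 members in all 6 collections. It was between 0.110 and 0.215 in Torin 1 replicate 1, between 0.0403 and 0.160 in replicate 2 and between 0.229 and 0.531 in replicate 3, against 0.680 to 0.896 in DMSO replicate 1, 0.0552 to 0.422 in replicate 2 and 0.105 to 0.722 in replicate 3. Ratios of the treatments overlapped for every member, with those of Torin 1 replicate 3 above those of DMSO replicate 2. The members kept a partly shared order. RPL10 was among the 3 highest ratios in all 6 collections, RPL12 in 5 and RPL23A in 4, while RPL39 and the long-UTR RPLP1 model were among the 3 lowest in 5 of the 6. RPL10 exceeded RPL39 in 5 of 6 collections, by a median of 1.22 on the log2 scale, and DMSO replicate 1 was the exception (−0.13). Footprints come from coding sequence and RNA reads also from UTRs, and the coding share of annotated exon bases differed between members: 93.4% for RPL12, 88.7% for RPL10, 85.4% for RPL3, 81.6% for the short-UTR RPLP1 model, 71.4% for RPL36A, 56.7% for RPL23A, 52.9% for RPL39, 45.0% for the long-UTR RPLP1 model and 37.8% for RPL27A. The short-UTR RPLP1 model was among the 3 highest ratios in 0 collections and among the 3 lowest in 4. These counts were 0 and 3 for RPL36A, 1 and 1 for RPL27A and 1 and 0 for RPL3. The part of this share in the order was not tested.

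**Figure D4:**
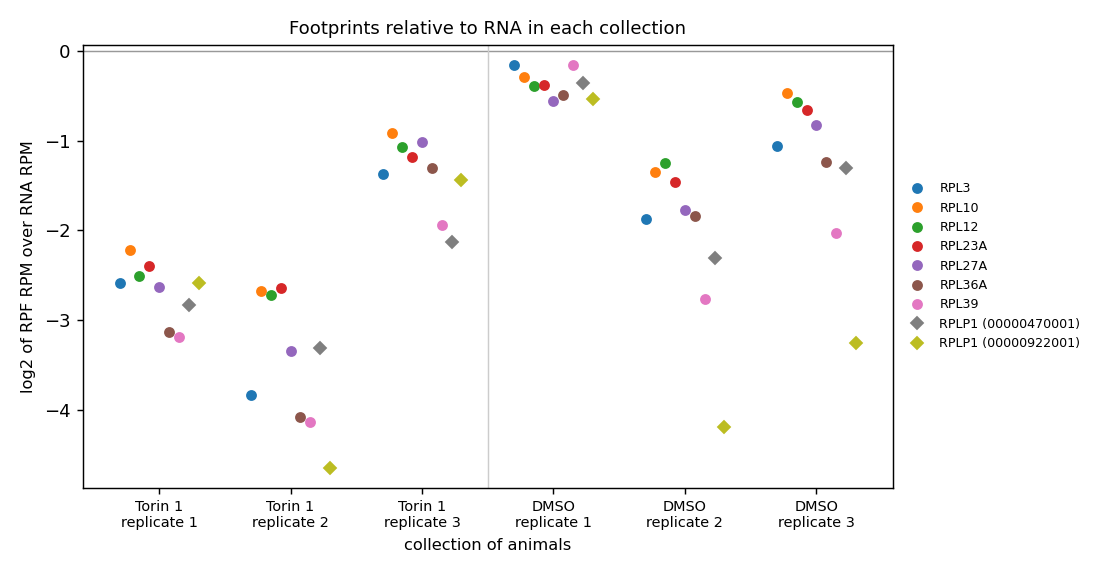
Log2 ratio of RPF RPM to RNA RPM for each of the 9 models (colours; diamonds for RPLP1) in the 6 collections of animals, Torin 1 on the left and DMSO on the right. All points lie below 0, and those of DMSO replicate 1 lie closest to it (ratios of 0.680 to 0.896). Genes other than the 9 are not drawn, and their share below 0 was not computed. The long-UTR RPLP1 model (GSOIDG00000922001) has ratios of 0.0552 and 0.105 in DMSO replicates 2 and 3, the lowest of the 9 there.

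In Torin 1 animals the log2 difference of RPFs from RNA was between −2.63 (RPL39, SE 0.76) and −1.50 (RPL10, SE 0.75), and the median was −2.003, against −0.42 for all genes tested. All 9 were negative, as were 63.4% of all genes. In RPM, all 9 had every RPF library below every RNA library, against 31.2% of all genes. Overlap on the scale of the fit was not computed. Of the 9, 8 had an unadjusted p under 0.05 in edgeR, against 9.21% of all genes that were lower at that level. The exception was RPL10. With the collections of animals as a block the count of 8 was 4, against 6.13% of all genes. It was 2 without RPF Torin 1 replicate 1 (5.08%) or replicate 2 (2.87%) and 4 without RNA Torin 1 replicate 2 (7.00%). No member passed after adjustment in edgeR (RPL39, adjusted p = 0.361), where 0% of all genes were called lower. DESeq2 called RPL39 (−2.52, adjusted p = 0.00789) and the short-UTR RPLP1 model (−2.20, adjusted p = 0.00837), where 0.446% of all genes were called lower. Without RNA Torin 1 replicate 3, edgeR called RPL39 (−2.87, adjusted p = 0.0306), again with 0.446% of all genes called lower. Without RNA Torin 1 replicates 2 and 3, the libraries in doubt of this comparison, it called both, with −2.57 (adjusted p = 0.0111) for RPL39 and −2.22 (adjusted p = 0.0360) for the short-UTR RPLP1 model, in a fit that takes the lone RNA library to vary like the RPF libraries and called 2.59% of all genes lower.

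In DMSO animals the differences lay between −1.61 (the long-UTR RPLP1 model, SE 0.79) and −0.40 (RPL10, SE 0.51), and the median was −0.75, against 0.17 for all genes tested. Without RPF DMSO replicate 1 these medians were −1.23 and −0.25. All 9 were negative, against 45.1% of all genes. For 8 of 9 the RPF libraries were below every RNA library in RPM, against 28.2% of all genes, with RPL10 as the exception. None of the 9 passed after adjustment in edgeR, against 1.21% of all genes called lower, and none had an unadjusted p under 0.05, against 11.3%. DESeq2 called 0 of the 9, against 4.03% of all genes called lower. Without RPF DMSO replicate 1, edgeR called 4: the long-UTR RPLP1 model (−3.52, adjusted p = 0.00172), RPL39 (−2.21, adjusted p = 0.00609), the short-UTR RPLP1 model (−1.61, adjusted p = 0.0225) and RPL36A (−1.32, adjusted p = 0.0440). That fit called 12.9% of all genes lower. With the collections as a block and all libraries kept, edgeR called the long-UTR RPLP1 model alone (−2.45, adjusted p = 0.0490), with 2.13% of all genes called lower. Without all the libraries in doubt it called RPL39 (−2.07, adjusted p = 0.0180) and the long-UTR RPLP1 model (−3.44, adjusted p = 4.82e-05), with 9.89% of all genes called lower.

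The RPLP1 models were compared by the ratio of the long-UTR to the short-UTR count in each library, which needs no scaling between libraries. In RNA the ratio was 0.485, 0.915 and 0.825 in Torin 1 replicates 1, 2 and 3, against 0.866, 0.891 and 0.927 in DMSO replicates. Torin 1 replicate 1 was the low one. These are ratios of counts without scaling by length, and RNA reads can also come from the longer 3′ UTR. Per kb of exons, UTRs included, the long-UTR model had 631 and 860 RPM in RNA of Torin 1 and DMSO animals. The short-UTR model had 1551 and 1744 RPM. The part of UTR reads in the ratios was not tested. In RPFs the ratio was 0.577, 0.371 and 1.32 in Torin 1 replicates, the last from 12 and 9 counts, against 0.764, 0.245 and 0.246 in DMSO replicates. The low ratios of DMSO replicates 2 and 3 came from 32 and 21 counts of the long-UTR model against 132 and 87 of the short-UTR model, and that of DMSO replicate 1 from 9378 against 12272 counts.

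On the log2 scale the ratio averaged −0.61 ± 0.93 in RPF Torin 1 libraries and −1.48 ± 0.95 in RPF DMSO libraries, a difference of 0.87 (two-sided exact permutation test, p = 0.3, n = 3 against 3). It averaged −0.48 ± 0.49 in RNA Torin 1 libraries and −0.16 ± 0.049 in RNA DMSO libraries, a difference of −0.32 (two-sided exact permutation test, p = 0.3). A comparison of 3 with 3 libraries cannot give a p below 0.1. Within collections, RPFs minus RNA gave −0.72 on average and a value below 0 in 4 of 6 collections (two-sided exact sign-flip permutation test, p = 0.219, smallest possible 0.031). The 4 were Torin 1 replicate 2 (−1.30) and DMSO replicates 1 (−0.18), 2 (−1.86) and 3 (−1.92), while Torin 1 replicates 1 and 3 gave 0.25 and 0.67. The difference between treatments in this measure was 1.19 (two-sided exact permutation test, p = 0.2). After Benjamini-Hochberg adjustment over these 4 tests each p was 0.3. Given the smallest p values possible here, no adjusted p of these 4 tests could have fallen below 0.05. The tests thus cannot decide whether the RPLP1 models differ.

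The human orthologs RPLP2, RPL4 and RPL32 also had 2 models each. The RPLP2 models (GSOIDG00003622001 over GSOIDG00015549001), the stalk partners of RPLP1, had a log2 ratio of −0.05 ± 0.16 in RPF Torin 1 libraries and 0.05 ± 0.60 in RPF DMSO libraries, and of −0.46 ± 0.13 in RNA Torin 1 libraries and −0.39 ± 0.081 in RNA DMSO libraries (SD, n = 3). The RPL4 models (GSOIDG00013547001 over GSOIDG00000869001), another protein of the exit tunnel, had −0.27 ± 0.45 in RPF Torin 1 libraries and 0.13 ± 0.74 in RPF DMSO libraries, and −0.17 ± 0.47 in RNA Torin 1 libraries and −0.49 ± 0.051 in RNA DMSO libraries. In both pairs, as for RPLP1, RPF DMSO replicate 1 lay closer to the RNA DMSO ratios than the other RPF DMSO libraries did. The RPL32 models (GSOIDG00006994001 over GSOIDG00006992001) were unequal in every library, with means between −4.87 (RPF DMSO) and −2.55 (RPF Torin 1). Here RPF DMSO replicate 3 (−3.51) lay closer to the RNA DMSO mean of −3.62 than replicate 1 did (−4.75), and GSOIDG00006994001 had no spliced leader in the study's list and 2 counts in all RPF Torin 1 libraries.

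**Figure D5:**
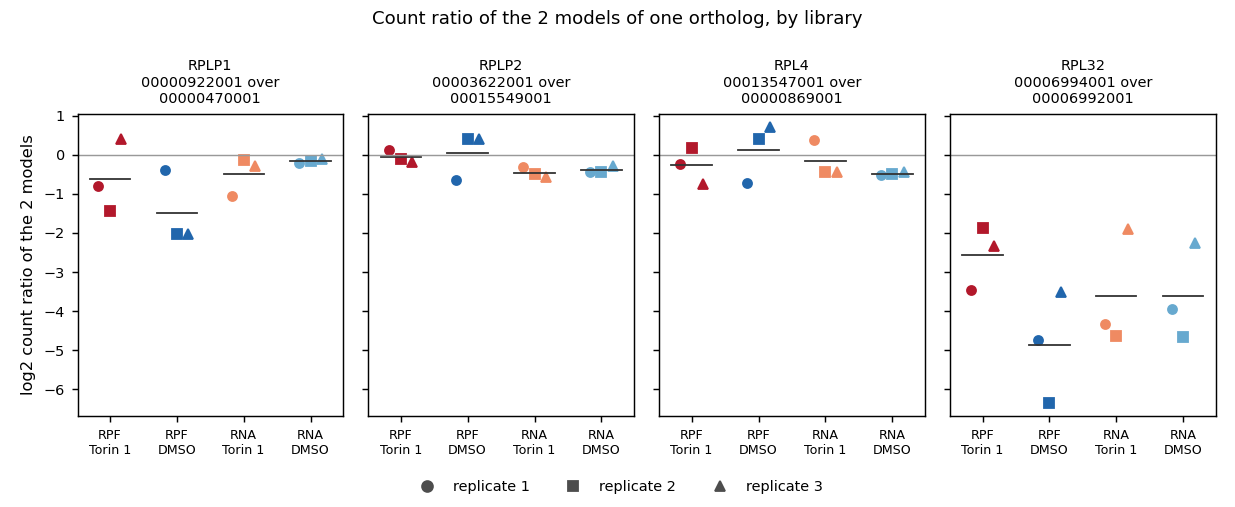
Log2 count ratio of the 2 models of RPLP1, RPLP2, RPL4 and RPL32 in each library (symbols by replicate number), with a line at the group mean. For RPLP1 the RNA DMSO libraries lie between −0.21 and −0.11, and in RPFs DMSO replicates 2 and 3 lie at −2.03 and −2.02, against −0.39 in DMSO replicate 1.

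Among the 37 other large-subunit models the changes in efficiency were between −3.38 for RPL7A (GSOIDG00010732001, SE 1.66, edgeR adjusted p = 0.693, from 6 counts in RPF Torin 1 libraries) and 0.65 for RPL7 (GSOIDG00006991001, SE 0.72, edgeR adjusted p = 0.999). The range of the 9 members, −1.53 to −0.64, lay within it.

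As a description, the profile of each gene over the 12 libraries (log2 CPM) was compared with those of the members by Pearson correlation, over 9420 genes that averaged 100 counts or more and were not members. These 12 points share collections, assay and depth, and no p is given. The mean profile of the 9 was most like RPL19 (r = 0.996), RPS7 (0.995), GSOIDG00008031001 (0.995), RPS20 (0.995) and GSOIDG00008032001 (0.994), and 37 of the 50 most similar genes were other ribosomal protein models of the study's list. The short-UTR RPLP1 model was most like RPL23 (r = 0.991), RPS18 (0.988) and RPL18 (0.982), with 32 of its 50 in that list. The long-UTR RPLP1 model was most like GSOIDG00000338001 (r = 0.989), GSOIDG00001611001 (0.987) and GSOIDG00014314001 (0.986), and 0 of its 50 were in that list. Pairs of members without the long-UTR model had a median r of 0.955 (28 pairs), and pairs with it had 0.855 (8 pairs).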

How the data were processed

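Per the labels, RPFs and total RNA were sequenced from whole day 6 females after 1.5 h in Torin 1 or DMSO, with 3 replicates in each of 4 groups. The authors filtered out rRNA and tRNA reads (Bowtie2 2.1.0), aligned the remainder with TopHat2 2.0.13 and used featureCounts, and the deposited values are raw counts per gene. Strand setting, genome build name and how multi-mapped reads were treated are not given in the sources used here. The deposited annotation, whose values are positions and thus of another kind, gave exons and neighbours.

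Genes with at least 100 reads over 12 libraries (14574 genes) were fitted with the quasi-likelihood F-test of edgeR 4.0.16 under R 4.3.3 (TMM scaling, Benjamini-Hochberg over all genes tested, threshold 0.05). The assay by treatment interaction replaced babel, the package of the study. Standard errors are the absolute log2 fold change over the root of F. Alternatives were DESeq2 1.42.0, other scalings, no filter, blocks and libraries left out. All changes are relative to other genes, so that a shift common to all mRNAs would not show. Library totals of 91549 to 27462750 counts set the precision. Ratios of models used a pseudocount of 0.5 (Python 3.11.15, scipy 1.17.1), log2 CPM a prior count of 2, and intervals are 95% Wilson.

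RNA and RPFs of one treatment and number came from the same collection, per the methods of the study. They were paired in the test of the RPLP1 ratio, whereas the edgeR fits had no block and the collection entered as a block in alternative fits. Correlations of their deviations were 0.18, −0.12 and 0.14 in Torin 1 and 0.01, −0.10 and −0.09 in DMSO animals. Torin 1 and DMSO libraries share a number, and although the study speaks of 3 collections over both treatments, no source used here ties equal numbers across treatments to one of them. Statistics were tested on simulated data. The members, the lists (the study's orthologs of human TOP mRNAs) and the libraries in doubt were chosen with earlier results of these data known. Named genes were all 9 members, the other large-subunit models with the lowest and highest efficiency change, both models of orthologs with 2, the closest profiles and operon neighbours.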

Additional observations from a re-analysis of the deposited data

How the results depend on the processing

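The RPF change of the 9 members stayed negative in all fits for 8 of them, and that of the long-UTR RPLP1 model (GSOIDG00000922001) turned to 0.44 without RPF DMSO replicate 1, the one library in doubt of that comparison (range with single libraries left out −1.89 to 0.44). In RNA, signs turned without RNA Torin 1 replicate 3 for RPL39 (0.049), RPL10 (0.035) and RPL12 (0.068), without RNA DMSO replicate 2 for RPL39 (0.017) and RPL12 (0.0056), and without all the libraries in doubt for RPL12 (0.035). With single libraries left out the lowest values were −0.32 for RPL39, −0.33 for RPL10 and −0.34 for RPL12. In efficiency the long-UTR RPLP1 model turned to 1.04 without RPF DMSO replicate 1 and 1.62 without the 4 libraries in doubt (−1.31 to 1.04 with single libraries left out). Why was not tested. Calls were 0 in every RPF, RNA and efficiency fit.

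For RPFs over RNA in Torin 1 animals, 2 members were called with DESeq2, 2 without the libraries in doubt, and 0 to 1 with single libraries left out. In DMSO animals these were 2 without the libraries in doubt and 0 to 4 with single libraries left out (4 without RPF DMSO replicate 1), where 9.89% and 12.9% of all genes were called lower in the fits with 2 and 4. With the collection of animals as a replicate block, 1 member was called in DMSO animals (the long-UTR RPLP1 model, −2.45) and its efficiency change was 0.14. The block by replicate number between treatments gave a median RPF change of −1.52. It left 0 members called, and 1 in place of 6 had an unadjusted p under 0.05 in RPFs. Correlations of same-numbered deviations were −0.06, 0.01 and −0.01 in RPFs and 0.66, −0.13 and 0.20 in RNA. For the RPLP1 ratio, p was 0.117 with no replicate block, and single libraries left out gave −1.002 to −0.48 for RPFs minus RNA, 0.37 to 1.42 in RPFs, −0.50 to −0.04 in RNA and 0.79 to 1.78 for the difference between treatments.

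With library totals in place of TMM the median RPF change of all genes moved to −0.36 and that of the members to −1.63. With DESeq2 size factors they were −0.18 and −1.42. For efficiency both medians were −0.71 and −1.46 with library totals and −0.69 and −1.40 with DESeq2 size factors, against −0.46 and −1.17 as reported. Ranks by level moved for 7 of 9 members when UTRs were counted in the length. Of 889 other values recomputed, 856 were rated the same, 11 turned in sign, 12 passed the threshold anew and 10 moved. Changes of members and the RPLP1 ratio were rated by direction and side of the threshold. Counts of members were rated by a set factor, and medians of the members by the SD of their values over replicate numbers. Depth limits the RPF values in Torin 1 replicate 3, where RPL12, RPL23A, RPL27A, RPL39 and both RPLP1 models had 9 to 16 counts each.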
